A study of Mus musculus with 25 samples.

Results

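Epididymal white adipose tissue (eWAT) of high-fat diet (HFD)-fed *Acod1*-/- mice was compared with eWAT of lean wild type (WT) mice on a normal diet (ND) to describe the distance that remained between lean fat and the fat of HFD-fed mice that lack the gene. The comparison used 9 of the 25 libraries of the study, 5 from HFD-*Acod1*-/- mice and 4 from ND-WT mice, chosen by their labels and not by any measured value. All were male C57BL/6N mice, 1 mouse per library. The HFD group received 60% of its calories from fat for 16 weeks from 5 weeks of age, and the ND group stayed on normal chow. The knockout is a whole-body deletion, so the gene is missing from adipocytes, immune cells and every other tissue. Eating HFD and lacking *Acod1* changed together between these groups, and no eWAT of ND-fed *Acod1*-/- mice was used here, so diet and genotype cannot be told apart in this comparison. For some of the genes, the levels in 5 eWAT libraries of HFD-WT mice are given beside it, which share the diet of the knockout mice and the genotype of the lean mice.

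Epididymal fat is a visceral depot in which adipocytes store triglyceride and are accompanied by progenitors, endothelial and mesothelial cells and resident macrophages. On a lipid-rich diet adipocytes enlarge, and macrophages accumulate and take on a lipid-handling, lysosome-rich state. *Acod1* encodes the mitochondrial enzyme that makes itaconate from the TCA cycle intermediate cis-aconitate, and it is best known from activated macrophages, where itaconate inhibits succinate dehydrogenase and modifies cysteines of regulatory proteins.

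Values per library are CPM, counts scaled to the same library size after TMM normalization. Depth was 31.41 to 52.34 M counted reads. The adipocyte genes *Adipoq* (2274 to 3397 CPM in ND-WT and 2348 to 4288 CPM in HFD-*Acod1*-/- libraries), *Plin1* and *Fabp4* were high in all 9 libraries. *Acod1* (ENSMUSG00000022126) was near 0, with at most 2 counts in an ND-WT library, 2 in an HFD-*Acod1*-/- library and 9 in an HFD-WT library, so it does not check the genotype. These counts are too few to show a difference between the groups (exact permutation test of CPM, two-sided, p = 0.556, smallest possible 0.0159). Column headers of the count files number the libraries in 2 runs, called library number runs here. All ND-WT libraries and HFD-*Acod1*-/- library 5 are in the second run and HFD-*Acod1*-/- libraries 1 to 4 in the first. A fit with the run as a term used all 14 eWAT libraries, HFD-WT ones included, and rests on HFD libraries of both runs. Only library 5 of each HFD genotype is in the second run, so the run and these single mice cannot be told apart. Summed over 16 genes of the epididymis, the duct beside this depot, ND-WT library 2 had 8841 CPM, HFD-*Acod1*-/- library 5 had 1257 CPM and HFD-*Acod1*-/- library 1 had 539 CPM, against at most 99.9 CPM in the other 6. These 3 are called the epididymis-rich libraries here. Mitochondrially encoded genes took 13.2% of counts in HFD-*Acod1*-/- library 2 and 4.67% to 8.61% in the other 8. The part of these differences in the results was not tested beyond the values given beside them.

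Of 15065 genes tested, 3615 differed between HFD-*Acod1*-/- and ND-WT eWAT at an adjusted p under 0.1, which is 24.0% (edgeR quasi-likelihood test, Benjamini-Hochberg adjustment over all genes). In HFD-*Acod1*-/- mice 1867 genes rose (12.4%) and 1748 fell (11.6%). The median log2 fold change was -0.0071 over all genes, and the median size of change among the called genes was 0.69. A log2 fold change of at least 1 was reached by 456 of the genes that rose and 586 of those that fell. The standard error (SE) given with a log2 fold change comes from the fit over 5 and 4 libraries. Gene positions are on GRCm38. In 1160 of the genes that rose and 1152 of those that fell no library of one group overlapped the other, where 8.30% and 9.07% of all genes tested had groups apart in these directions. With the library number run as a term 6.46% of genes passed, of which 566 rose (3.76%) and 407 fell (2.70%). Of the 3615 genes 839 passed again in the same direction and 3614 had the same sign. Without the 3 libraries with epididymis genes over 100 CPM, 1230 rose (8.16%) and 978 fell (6.49%). For each list below, these shares of all genes are the ones to set beside its counts in the same fit.

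The genes with the smallest adjusted p that rose belong to several functions, among them immunoglobulin, prostaglandin signalling, glucose transporter traffic and mitochondrial translation. These genes, those of this rank that fell and the 5 largest changes per direction were picked only where the groups did not overlap. Their separation is thus part of the choice. *Ighm* (ENSMUSG00000076617, chromosome 12, 113418558 to 113422730), the constant region of IgM, was at 343, 294, 365 and 276 CPM in ND-WT libraries 1 to 4 and at 796, 1051, 776, 1023 and 920.0 CPM in HFD-*Acod1*-/- libraries 1 to 5. Every knockout library was far above the highest lean one (log2 fold change 1.53, SE 0.14, adjusted p = 0.00191). HFD-WT libraries spanned 336 to 866 CPM, and *Ighm* also passed between HFD-*Acod1*-/- and HFD-WT mice (0.65, adjusted p = 0.0508), a comparison in which 9.01% of genes were higher and 10.6% lower in the knockout.

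*Ptger3* (ENSMUSG00000040016, chromosome 3, 157566892 to 157645888), which encodes the prostaglandin E2 receptor EP3 that restrains lipolysis in adipocytes, was at 39.7, 32.3, 39.1 and 34.4 CPM in the lean libraries and 172, 296, 141, 127 and 115 CPM in the knockout libraries (log2 fold change 2.24, SE 0.28, adjusted p = 0.00708). The groups were well apart, with HFD-*Acod1*-/- library 2 the highest. *Trarg1* (ENSMUSG00000046275, chromosome 11, 76679808 to 76698664), a regulator of GLUT4 trafficking in adipocytes, was at 419, 271, 341 and 303 CPM against 677, 754, 684, 670.0 and 638 CPM (log2 fold change 1.05, SE 0.13, adjusted p = 0.0073). *Mfng* (ENSMUSG00000018169, chromosome 15, 78755882 to 78773475), a glycosyltransferase that modifies Notch receptors, was at 56.6, 49.2, 66.1 and 59.6 CPM against 179, 165, 162, 139 and 105 CPM (log2 fold change 1.39, SE 0.16, adjusted p = 0.00589). Its lowest knockout library, library 5, is the one from the second run, and it was still above every lean library. *Unc119*, a chaperone for lipid-modified proteins, was at 26.6, 26.7, 28.4 and 23.96 CPM against 94.4, 177, 72.2, 87.4 and 82.05 CPM (log2 fold change 1.97, SE 0.26, adjusted p = 0.00781). *Phlda3*, a p53 target that inhibits Akt, was at 115, 86.5, 78.98 and 52.3 CPM against 306, 527, 360.3, 288 and 261 CPM (log2 fold change 2.08, SE 0.27, adjusted p = 0.00795). The highest value of both was in HFD-*Acod1*-/- library 2, and the lean libraries of *Unc119* spanned only 23.96 to 28.4 CPM.

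Also of this rank were *Nudt18*, a hydrolase of oxidised nucleotides (1.14), *Mrpl40*, a subunit of the mitochondrial ribosome (0.87), *Tmem205* (1.25), *Gm28802* (1.801) and *Rpl38-ps2* (0.88, all log2 fold changes). *Rpl38-ps2* is a pseudogene that can share reads with its parent, so its value is uncertain. All 12 passed with the library number run as a term and in each fit that left out 1 library. In HFD-WT mice all 12 were also above their ND-WT level, by 0.64 (*Mrpl40*) to 2.16 (*Gm28802*) on the log2 scale, and *Ighm* was the only 1 of them to pass between the HFD genotypes.

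**Figure D1:**
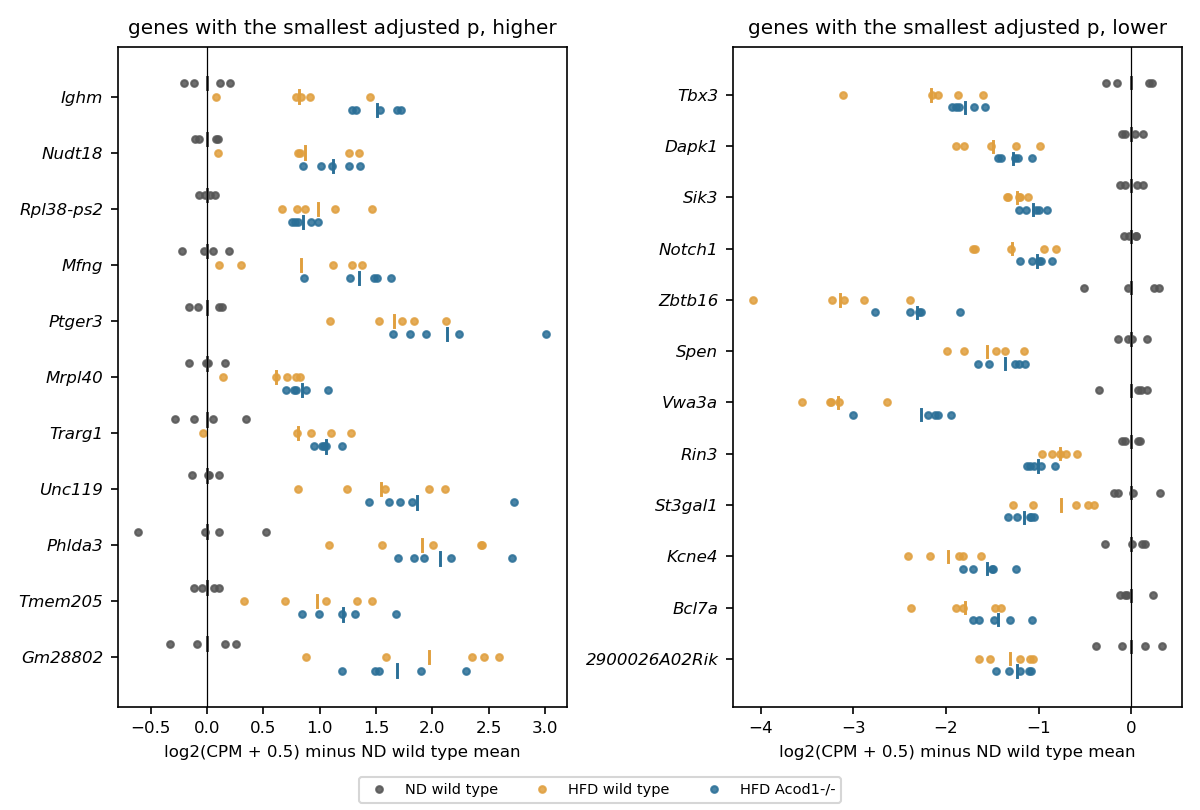
Level of genes of smallest adjusted p in each direction, as log2(CPM + 0.5) minus the ND-WT mean, 1 point per library of ND-WT, HFD-WT and HFD-*Acod1*-/- eWAT, with short vertical bars at the group means. Genes were shown only if the 5 HFD-*Acod1*-/- libraries lay to one side of the 4 ND-WT libraries, as for *Tbx3* at 16.5 to 21.2 against 53.4 to 75.6 CPM.

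Among the genes that fell, transcription regulators, a kinase of the salt-inducible family and parts of Notch signalling led by adjusted p. *Tbx3* (ENSMUSG00000018604, chromosome 5, 119670669 to 119684724), a T-box transcription factor, was at 57.7, 75.6, 73.9 and 53.4 CPM in ND-WT and 17.4, 21.2, 16.98, 16.5 and 19.5 CPM in HFD-*Acod1*-/- libraries (log2 fold change -1.82, SE 0.14, adjusted p = 0.00187). *Zbtb16* (ENSMUSG00000066687, chromosome 9, 48654297 to 48836222), the zinc finger factor PLZF, fell further, from 163, 226, 276 and 287 CPM to 47.7, 33.9, 64.3, 47.1 and 43.97 CPM (log2 fold change -2.32, SE 0.21, adjusted p = 0.00187). The highest knockout library of *Zbtb16* was well under the lowest lean one. HFD-WT libraries were lower again, at 13.3 to 44.02 CPM, and the difference between the HFD genotypes passed (0.77, adjusted p = 0.0748).

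*Notch1* (ENSMUSG00000026923, chromosome 2, 26457903 to 26516663), a receptor that controls cell fate, was at 84.4, 84.4, 80.4 and 77.2 CPM against 44.95, 38.6, 41.2, 35.1 and 40.6 CPM (log2 fold change -1.02, SE 0.091, adjusted p = 0.00187). *Spen*, a corepressor at Notch target genes, was at 43.9 to 54.8 CPM in the lean and 15.1 to 21.7 CPM in the knockout libraries (-1.36, adjusted p = 0.00187). For both, the lean libraries were close together and lay above all 5 knockout libraries. *Dapk1*, a death-associated protein kinase, was at 146, 143, 158 and 168 CPM against 63.8, 56.3, 65.6, 72.98 and 57.6 CPM (log2 fold change -1.27, SE 0.103, adjusted p = 0.00187). *Sik3* (ENSMUSG00000034135, chromosome 9, 46012820 to 46224194), a salt-inducible kinase, was at 66.7, 64.4, 76.2 and 72.95 CPM against 34.7, 29.95, 36.99, 34.01 and 31.5 CPM (log2 fold change -1.06, SE 0.092, adjusted p = 0.00187). *Sik3* was tight in both groups, and HFD-WT libraries, at 27.4 to 31.9 CPM, overlapped the knockout range.

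*Vwa3a*, a protein with von Willebrand factor A domains, was at 39.7, 28.98, 41.7 and 38.86 CPM against 8.13, 7.697, 8.34, 9.22 and 4.16 CPM (log2 fold change -2.299, SE 0.22, adjusted p = 0.00191). HFD-WT libraries were at 2.69 to 5.53 CPM, and the gene passed as higher in HFD-*Acod1*-/- than in HFD-WT mice (0.996, adjusted p = 0.0159). *St3gal1*, a sialyltransferase, was at 65.5 to 92.3 CPM in ND-WT, 30.4 to 56.4 CPM in HFD-WT and 29.3 to 35.7 CPM in HFD-*Acod1*-/- libraries (-1.17, adjusted p = 0.00289 against ND-WT, -0.44, adjusted p = 0.0927 against HFD-WT). The remaining 4 were *Rin3*, an exchange factor for Rab5 (-1.02), *Kcne4*, a potassium channel subunit (-1.62), *Bcl7a*, a subunit of the SWI/SNF chromatin complex (-1.47) and *2900026A02Rik* (-1.25, all log2 fold changes). All 12 passed with the run as a term and in every fit that left out 1 library. Of the 24 genes of smallest adjusted p in both directions, 4 passed between the HFD genotypes, namely *Ighm*, *Zbtb16*, *Vwa3a* and *St3gal1*.

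Among called genes averaging at least 5 CPM over the 9 libraries and with groups apart, the largest rises were in genes known from the liver. *Mup20*, a major urinary protein, had no count in any ND-WT library and was at 0.0991, 4.89, 32.5, 41.02 and 15.2 CPM in HFD-*Acod1*-/- libraries 1 to 5, which is at least 313-fold higher than the floor of 3 counts per library. *Fabp1*, the liver fatty acid-binding protein, also had no count in the lean libraries and was at 0.149, 2.96, 20.6, 31.2 and 36.5 CPM, at least 305-fold higher. For both, HFD-*Acod1*-/- library 1 was close to the lean level and libraries 3 to 5 were highest. *Apoa2*, an apolipoprotein of HDL, was at 0.142, 0.231, 0 and 0.289 CPM against 0.694, 6.94, 38.1, 39.4 and 60.97 CPM (log2 fold change 7.39, SE 1.35, adjusted p = 0.0169). *Alb*, serum albumin, which was not among the 5 largest rises, was at 10.04, 9.14, 13.8 and 14.3 CPM against 24.8, 40.2, 168, 117 and 203 CPM (log2 fold change 3.24, SE 0.61, adjusted p = 0.0183). Neither gene overlapped between the groups, although HFD-*Acod1*-/- library 1 was again lowest. Under these conditions the 5 largest rises were *Mup20*, *Fabp1*, *Apoa2*, *Serpina1e* and *Mup3*. Members of the *Serpina1* and *Mup* families are nearly identical in sequence, so reads may be split among them and their single values are uncertain.

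A list of 25 liver genes, put together after these values were seen and thus a description, had 23 tested members, of which 20 rose and 0 fell. The 3 that did not pass were *Fga* (1.12), *Rbp4* (0.69) and *Vtn* (0.14). The list's median log2 fold change was 6.22, also with the 4 members that had no count in ND-WT mice at their bound, and 19 members passed with the run as a term and 20 without the epididymis-rich libraries. HFD-WT libraries had the same genes, with a median of 6.52 over ND-WT, and 1 of them was higher and 0 lower in HFD-*Acod1*-/- than in HFD-WT mice. In the knockout libraries *Alb* did not exceed 203 CPM, where *Adipoq* was at 2348 to 4288 CPM, and whether the liver transcripts come from fat cells was not tested.

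Among genes picked by the same conditions, those of epithelia made up the largest falls. *Dsp*, the desmosome protein desmoplakin, was at 7.59, 23.7, 13.7 and 8.53 CPM in ND-WT and 0.62, 0.91, 1.08, 0.631 and 1.71 CPM in HFD-*Acod1*-/- libraries (log2 fold change -3.75, SE 0.45, adjusted p = 0.00708), with the groups apart. *Cdh16*, a kidney-type cadherin, was at 11.6, 19.3, 0.726 and 11.6 CPM against 0.149, 0, 0.433, 0 and 0.433 CPM (log2 fold change -5.68, SE 1.18, adjusted p = 0.0221). ND-WT library 3 held far less *Cdh16* than the other lean libraries. *Cyp2f2*, a cytochrome P450 of secretory epithelium, was at 9.65, 28.9, 38.8 and 238 CPM against 2.55, 0.569, 8.88, 5.098 and 4.7001 CPM (log2 fold change -4.16, SE 0.97, adjusted p = 0.0302), ND-WT library 4 being the highest. *Slc30a2*, a zinc transporter (1.63 to 17.9 against 0.158 to 1.49 CPM), and *Mlph*, which links vesicles to myosin (5.003 to 36.5 against 0.834 to 2.902 CPM), followed. With the run as a term *Dsp*, *Slc30a2* and *Mlph* passed, and *Cdh16* (-3.53, adjusted p = 0.343) and *Cyp2f2* (-4.601, adjusted p = 0.122) did not.

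Over an epithelial list of 21 genes, also written after the values were seen, 13 of 20 tested fell and 0 rose, with a median of -3.105. Counts that left out 1 library ranged from 7 to 15 (7 without ND-WT library 2 or HFD-*Acod1*-/- library 2), 4 passed with the run as a term and 9 without the epididymis-rich libraries. The summed level of the list was 104 to 759.6 CPM in ND-WT, 13.2 to 59.7 CPM in HFD-WT and 35.9 to 97.8 CPM in HFD-*Acod1*-/- libraries, so no knockout library reached the lowest lean one. In ND-WT libraries 1 to 4 this list summed to 189, 759.6, 104 and 413 CPM, and the epididymis genes to 3.93, 8841, 99.9 and 4.03 CPM. The part of epididymis in the epithelial values was not tested further. In the epididymis list itself 2 of 13 tested genes passed as higher, *Cst8* and *Lcn8*, both highest in HFD-*Acod1*-/- library 1 at 31.3 and 76.6 CPM. Neither passed in the fit that left out that library alone. Without all 3 epididymis-rich libraries *Cst8* passed as higher (6.44, adjusted p = 0.0991). In bulk tissue, fewer cells of a type and less RNA per cell cannot be told apart, here and in the cell type lists below.

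**Figure D2:**
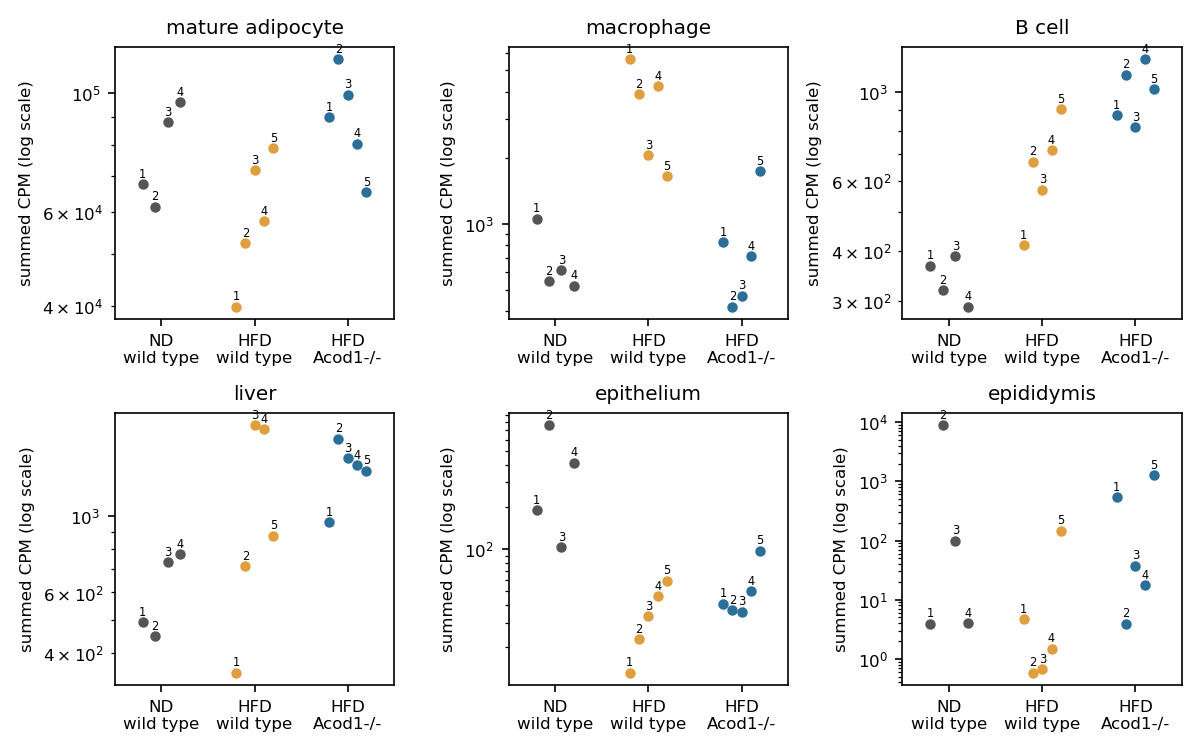
Summed CPM of 6 marker lists on log axes, 1 point per library marked with its number, in ND-WT, HFD-WT and HFD-*Acod1*-/- eWAT. B cell genes sum to 291 to 389 CPM in ND-WT and 816 to 1206 CPM in HFD-*Acod1*-/- libraries, and macrophage genes to 522 to 1055 and 418 to 1737 CPM. Most of the B cell sum is *Ighm*.

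Adipocyte identity genes showed no called change. None of the 16 tested mature adipocyte genes passed in either direction, with a median log2 fold change of 0.096 and a range of -0.82 to 0.75. *Adipoq*, the hormone adiponectin, had a log2 fold change of 0.16, SE 0.19, adjusted p = 0.574, and *Plin1*, the lipid droplet coat protein, one of 0.023 (SE 0.17). The HFD-WT libraries had a median of -0.53 against ND-WT over the same list, and 8 of its members passed as higher in HFD-*Acod1*-/- than in HFD-WT mice, *Adipoq* (0.65, adjusted p = 0.0898) and *Plin1* (0.65, adjusted p = 0.0504) among them.

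Genes that track the growth of fat mass were mostly higher. Of 6 tested, 4 rose and 0 fell (5 and 0 with the run as a term, 1 and 0 without the epididymis-rich libraries), with a median log2 fold change of 1.56, and leaving out 1 library gave 3 to 5. *Mest* (ENSMUSG00000051855, chromosome 6, 30723547 to 30748465), an imprinted gene whose level follows adipocyte enlargement, was at 193, 85.8, 76.3 and 17.4 CPM in lean and 848, 755, 556, 392 and 1278 CPM in knockout libraries (log2 fold change 3.05, SE 0.62, adjusted p = 0.0212). ND-WT library 4 had the least and HFD-*Acod1*-/- library 5 the most, with every knockout library above every lean one. *Npr3*, the natriuretic peptide clearance receptor, was at 470.2 to 1162 against 1169 to 1794 CPM (1.08, adjusted p = 0.0334), and *Bmp3*, a bone morphogenetic protein, at 8.61 to 36.99 against 43.7 to 90.5 CPM (1.63, adjusted p = 0.0405). *Nkd1*, an inhibitor of Wnt signalling, passed at 1.06, adjusted p = 0.0974, but it passed in 2 of the 9 fits that each left out 1 library, with an adjusted p of up to 0.209, the losses being without ND-WT library 1, 2, 3 or 4 or HFD-*Acod1*-/- library 1, 2 or 5. *Lep*, the satiety hormone leptin, was at 1749, 657, 973 and 344 CPM against 2586, 2080.1, 1273, 1289 and 6725 CPM with groups that overlapped, and missed the threshold (log2 fold change 1.598, SE 0.601, adjusted p = 0.101). Against HFD-WT mice, 0 of these genes were higher and 0 lower in the knockout, with a median difference of -0.39.

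Thermogenic genes gave few readings. Of 7 tested genes of brown and beige adipocytes, the cytochrome oxidase subunits *Cox7a1* (2.45 to 4.797 against 6.596 to 27.9 CPM, 1.78, adjusted p = 0.036) and *Cox8b* (5.94 to 8.78 against 11.3 to 71.6 CPM, 1.82, adjusted p = 0.0685) rose and 0 fell (0 and 1 with the run as a term, 1 and 1 without the epididymis-rich libraries). The library rich in mitochondrial reads, HFD-*Acod1*-/- library 2, was highest for both, at 27.9 and 71.6 CPM, and *Cox8b* no longer passed without any 1 of the ND-WT libraries (adjusted p up to 0.14). *Ucp1*, the uncoupling protein that defines these cells, *Elovl3* and *Dio2* were below the filter of 1 CPM.

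The lipogenic genes that passed were all lower, while most genes of triglyceride synthesis and lipolysis that passed were higher. Of 20 tested genes of de novo lipogenesis, 0 rose and 4 fell, beside 12.4% and 11.6% of all genes. These counts were 1 and 1 with the run as a term and 0 and 2 without the epididymis-rich libraries. The list's median log2 fold change was -0.18, against -0.89 in HFD-WT mice, and 9 of the 20 were positive. Summed over the list, ND-WT libraries had 31036.3 to 58003.3 CPM and HFD-*Acod1*-/- libraries 37936.9 to 58134.5 CPM. *Fads1*, the delta-5 desaturase, was at 94.8, 192, 134 and 139.7 CPM against 71.1, 43.9, 75.9, 54.5 and 55.2 CPM (log2 fold change -1.22, SE 0.22, adjusted p = 0.0169). *Pnpla3*, a lipid droplet hydrolase under lipogenic control, was at 158, 283, 196 and 247 CPM against 123, 148, 118, 124 and 116 CPM (log2 fold change -0.81, SE 0.17, adjusted p = 0.0243). Both had groups apart, and *Pnpla3* was also higher in HFD-*Acod1*-/- than in HFD-WT mice (0.77, adjusted p = 0.0222). *Fads2*, the delta-6 desaturase, passed at -2.52, adjusted p = 0.0481, with 72.1 CPM in ND-WT library 2 and 3.98 CPM in ND-WT library 3, and it no longer passed without ND-WT library 2, with an adjusted p of up to 0.133. *Acly*, ATP citrate lyase, passed at -0.86, adjusted p = 0.0791, and it passed in 2 of the 9 fits that each left out 1 library, with an adjusted p of up to 0.186, the losses being without ND-WT library 2, 3 or 4 or HFD-*Acod1*-/- library 1, 3, 4 or 5. Without HFD-*Acod1*-/- library 2 the count of lipogenic genes that fell was 7.

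In triglyceride synthesis and lipolysis 5 of 19 tested genes rose and 1 fell, beside 12.4% and 11.6% of all genes, with a median of 0.13. These counts were 2 and 0 with the run as a term and 3 and 0 without the epididymis-rich libraries. *Dgat2* (ENSMUSG00000030747, chromosome 7, 99153658 to 99182719), which catalyses the last step of triglyceride synthesis, was at 1395, 1239.7, 1107 and 1200.2 CPM against 2585, 4353, 2159, 2469 and 3061 CPM (log2 fold change 1.25, SE 0.21, adjusted p = 0.0154). *Agpat2*, an acyltransferase earlier in the same pathway, was at 156, 206, 182 and 313 CPM against 542, 1246, 557, 433 and 506 CPM (log2 fold change 1.63, SE 0.35, adjusted p = 0.0241). The groups did not overlap for either, and both passed with the run as a term. *G0s2*, an inhibitor of adipose triglyceride lipase, rose (0.95, adjusted p = 0.0416), and it no longer passed without ND-WT library 4, with an adjusted p of up to 0.112. *Gpd1* and *Mgll* passed as higher and *Pde3b*, the phosphodiesterase that mediates the antilipolytic action of insulin, as lower (526 to 815 against 309 to 505 CPM, -0.58, adjusted p = 0.0768), none of these 3 in more than 3 of the 9 fits that left out 1 library. The count that rose ranged from 2 to 6 (2 without ND-WT library 4, 3 without ND-WT library 1 or 3 or HFD-*Acod1*-/- library 2) over those fits. *Pde3b* differed between the HFD genotypes too, being higher in the knockout (0.93, adjusted p = 0.0112).

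Nuclear genes of the respiratory chain were higher in the fit of all 9 libraries, and other mitochondrial lists differed from them. Of 70 tested nuclear genes of the respiratory chain, 40 rose and 0 fell, beside 12.4% and 11.6% of all genes. The list's median log2 fold change was 0.61. *Ndufb4*, a complex I subunit, was at 44.6, 38.4, 54.8 and 48.01 CPM against 84.7, 139.8, 71.8, 95.4 and 64.8 CPM (log2 fold change 0.99, SE 0.22, adjusted p = 0.0261). *Uqcr10*, a complex III subunit, was at 87.3, 92.5, 121 and 123 CPM against 179, 287, 171, 181 and 138 CPM (log2 fold change 0.86, SE 0.21, adjusted p = 0.0335). In both, HFD-*Acod1*-/- library 2 was highest, library 5 was lowest and the groups were apart. The count depended on single libraries, with 9 to 52 (9 without ND-WT library 1, 11 without ND-WT library 2, 19 without ND-WT library 4, 22 without HFD-*Acod1*-/- library 4) over the fits that left out 1 library, and it was 29 without the epididymis-rich libraries. With the run as a term 0 genes passed, at a median of 0.46, and the single knockout library of the second run gave a median of 0.14 against the lean libraries of that run. The 13 mitochondrially encoded genes had a median of 0.57 with none called, 0.202 without HFD-*Acod1*-/- library 2, and -0.48 in the second run alone.

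Of 24 tested TCA cycle genes, *Idh3a* (0.62, adjusted p = 0.0516), *Suclg1* (0.398, adjusted p = 0.0585) and *Idh2* (0.35, adjusted p = 0.098), enzymes of isocitrate and succinyl-CoA turnover, rose and 0 fell (0 and 0 with the run as a term, 1 and 0 without the epididymis-rich libraries), a share near the 12.4% of all genes, with a list median of 0.11, and leaving out 1 library gave 0 to 3 (0 without ND-WT library 1 or 2, 1 without ND-WT library 3 or HFD-*Acod1*-/- library 1 or 2). Fatty acid oxidation had 8 of 21 tested genes higher and 0 lower, beside 12.4% and 11.6% of all genes, at a median of 0.31. These counts were 1 and 0 with the run as a term and 1 and 0 without the epididymis-rich libraries. *Etfb*, the electron transfer flavoprotein subunit, was at 12.5, 10.99, 24.99 and 19.4 CPM against 41.2, 84.6, 41.97, 38.89 and 22.98 CPM (log2 fold change 1.45, SE 0.38, adjusted p = 0.0373), with HFD-*Acod1*-/- library 2 highest and library 5 within the lean range. *Acaa2*, *Decr1* and *Acads*, enzymes of the beta-oxidation cycle, rose by 0.50, 0.53 and 0.59 on the log2 scale, and *Cpt1a*, the entry step into mitochondria, by 0.68. The count ranged from 1 to 9 (1 without ND-WT library 2, 3 without ND-WT library 1, 4 without ND-WT library 3 or HFD-*Acod1*-/- library 1, 5 without HFD-*Acod1*-/- library 2 or 3) when 1 library was left out. In branched-chain amino acid catabolism 0 of 20 tested genes rose and 2 fell (0 and 2 with the run as a term, 0 and 0 without the epididymis-rich libraries), *Ppm1k* (-0.61, adjusted p = 0.0916) among them, at a median of 0.035.

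The length of the transcript moved with these changes. Cytosolic ribosomal protein genes, a list added after the values were seen, had 63 of 79 tested members higher and 0 lower at a median of 0.604. Of these genes 2 passed with the run as a term, 37 without ND-WT library 4 and 55 without the epididymis-rich libraries. Genes with a cDNA of at most 500 bases had a median log2 fold change of 0.75 over 305 genes, and those over 6000 bases one of -0.12 over 4322 genes. In these bins 30.5% and 5.60% of genes rose and 1.97% and 16.9% fell. The median cDNA was 2507 bases among genes that rose, 5455 bases among those that fell and 4114 bases among all tested. HFD-WT mice showed the same order against ND-WT, from 0.50 in the shortest bin to -0.16 in the longest. For genes of at most 1000 bases the median was 0.62, 0.46 with the run as a term and 0.26 in the second run alone. Of the respiratory chain genes 18 were at most 1000 bases long and 61 of 70 lay above the median of genes of like length. Among the ribosomal protein genes 12 were at most 1000 bases long and 72 of 79 lay above that median. The part of length in the mitochondrial and ribosomal counts was not tested further.

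**Figure D3:**
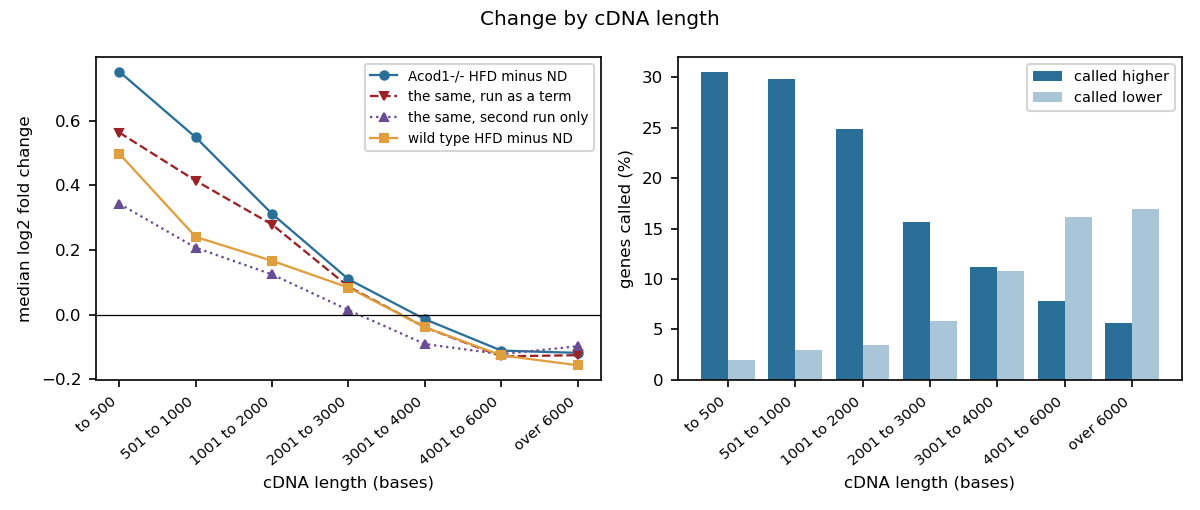
Median log2 fold change of HFD-*Acod1*-/- against ND-WT eWAT by cDNA length bin in bases, for all 9 libraries, with the library number run as a term and in the second run alone, with the HFD-WT against ND-WT medians beside them (left), and the percent of genes called higher and lower in each bin (right). Medians fall from 0.75 in the shortest to -0.12 in the longest bin in the fit of all 9 libraries.

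In cholesterol synthesis and uptake 8 of 23 tested genes rose and 1 fell, beside 12.4% and 11.6% of all genes. These counts were 6 and 0 with the run as a term and 6 and 2 without the epididymis-rich libraries. The list's median log2 fold change was 0.43. *Insig1*, which retains the SREBP complex in the endoplasmic reticulum, was at 108, 115, 83.4 and 119 CPM against 256, 513, 244, 194 and 480.1 CPM (log2 fold change 1.67, SE 0.31, adjusted p = 0.0175). *Sc5d*, a late enzyme of the pathway, was at 105, 85.5, 75.002 and 74.6 CPM against 156, 206, 141, 137 and 224 CPM (log2 fold change 1.03, SE 0.18, adjusted p = 0.0163). Libraries 2 and 5 of the knockout were highest for both, and no library overlapped between the groups. *Hmgcs1* (1.43, adjusted p = 0.0341), *Dhcr7* (1.09, adjusted p = 0.0479), *Msmo1*, *Mvd*, *Ebp* and *Nsdhl*, all enzymes of the pathway, also rose, and *Srebf2*, the transcription factor SREBP2 that induces it, fell (39.5 to 52.2 against 27.6 to 35.95 CPM, -0.52, adjusted p = 0.0333). The fits that left out 1 library gave 3 to 10 (3 without ND-WT library 4, 4 without ND-WT library 1 or 3 or HFD-*Acod1*-/- library 1 or 2, 5 without ND-WT library 2) genes higher. HFD-WT mice were higher still in *Dhcr7*, at 26.1 to 45.5 CPM against 11.1 to 29.4 CPM in the knockout (-0.81, adjusted p = 0.059).

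Of 12 tested genes of insulin action, *Trarg1* and *Akt2* rose and *Irs2* fell (1 and 0 with the run as a term, 2 and 0 without the epididymis-rich libraries), a share near the 24.0% of all genes called in either direction. *Akt2*, the Akt kinase of insulin-responsive tissues, was at 225, 214, 241 and 219 CPM against 337, 381, 382, 308 and 271 CPM (log2 fold change 0.59, SE 0.12, adjusted p = 0.0214), a small difference with groups that did not overlap. *Irs2*, an insulin receptor substrate, passed at -0.59, adjusted p = 0.0772, but it passed in 2 of the 9 fits that each left out 1 library, with an adjusted p of up to 0.164, the losses being without ND-WT library 1, 2, 3 or 4 or HFD-*Acod1*-/- library 1, 2 or 5.

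No macrophage gene passed against lean fat in the fit of all 9 libraries. Of 18 tested, 0 rose and 0 fell (0 and 0 with the run as a term, 0 and 2 without the epididymis-rich libraries), with a median log2 fold change of 0.32 against 2.31 in HFD-WT mice. *Adgre1*, the macrophage surface protein F4/80, was at 43.7, 19.8, 24.6 and 22.9 CPM in ND-WT, 37.1, 13.4, 15.2, 18.9998 and 97.7 CPM in HFD-*Acod1*-/- and 378, 240.0, 83.8, 262 and 61.96 CPM in HFD-WT libraries. *Cd68*, a lysosomal protein of macrophages, was at 38.5, 16.95, 18.6 and 15.1 CPM, 40.8, 24.2, 21.8, 36.8 and 132 CPM and 636, 337, 186, 338 and 175 CPM in the same order. The knockout libraries overlapped the lean ones in both genes, with library 5 highest, at log2 fold changes of 0.41 (SE 0.58, adjusted p = 0.643) and 1.21 (SE 0.55, adjusted p = 0.16), and a p that misses the threshold does not show that the levels were equal. Without the epididymis-rich libraries, which include HFD-*Acod1*-/- library 5, *Adgre1* (-0.91, adjusted p = 0.089) and *Csf1r*, the receptor for the macrophage growth factor CSF1 (-0.64, adjusted p = 0.0684), were lower than in lean fat, so the sign of *Adgre1* turned. The list median was 0.56 with the run as a term and 1.21 in the second run alone, which has HFD-*Acod1*-/- library 5 as its 1 knockout library. All 18 tested macrophage genes were lower in HFD-*Acod1*-/- than in HFD-WT mice at an adjusted p under 0.1, by a median of -2.003.

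Some lipid-associated macrophage genes were above lean fat. Of 18 tested, 4 rose and 0 fell, beside 12.4% and 11.6% of all genes, at a median of 0.73. These counts were 2 and 0 with the run as a term and 1 and 1 without the epididymis-rich libraries. *Fabp5*, a fatty acid-binding protein, was at 143, 94.7, 126 and 177 CPM against 323, 578, 335, 219 and 449 CPM (log2 fold change 1.51, SE 0.28, adjusted p = 0.0181), with the groups apart. *Plin2*, a lipid droplet protein also made by adipocytes, was at 396, 230.0, 290.4 and 294 CPM against 526, 511, 364, 583 and 864 CPM (log2 fold change 0.93, SE 0.24, adjusted p = 0.0383). *Lgals3*, galectin-3, was at 157, 81.5, 116 and 74.5 CPM against 179, 235, 112, 193 and 558 CPM (log2 fold change 1.27, SE 0.44, adjusted p = 0.0822). The highest *Lgals3* was in HFD-*Acod1*-/- library 5. When single libraries were left out, it passed in 3 of the 9 fits that each left out 1 library, with an adjusted p of up to 0.18, the losses being without ND-WT library 1, 2, 3 or 4 or HFD-*Acod1*-/- library 2 or 4. *Ctsd*, the protease cathepsin D, passed at 0.76, adjusted p = 0.0506, and it no longer passed without ND-WT library 1 or 2 or HFD-*Acod1*-/- library 2, with an adjusted p of up to 0.121. *Trem2*, the lipid receptor that defines these cells, was at 2.23 to 12.9 CPM in ND-WT, 4.21 to 50.4 CPM in HFD-*Acod1*-/- and 78.5 to 386 CPM in HFD-WT libraries and did not pass against ND-WT (1.34, adjusted p = 0.265). Over the list, HFD-WT mice stood 2.54 above ND-WT mice, and 16 of 18 genes were lower in the knockout than in HFD-WT mice. The count against ND-WT ranged from 2 to 5 (2 without ND-WT library 1 or 2 or HFD-*Acod1*-/- library 2) when 1 library was left out.

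Of 26 lysosomal genes 4 rose, among them *Atp6v0d1*, a subunit of the proton pump (89.7 to 105 against 118 to 164 CPM, 0.53, adjusted p = 0.0212), and *Ctsz*, cathepsin Z (0.67, adjusted p = 0.0496), while *Neu1*, a sialidase, fell (-0.59, adjusted p = 0.0671). This is near the 12.4% and below the 11.6% of all genes. Against 4 higher and 1 lower, 1 and 0 passed so with the run as a term and 0 and 1 without the epididymis-rich libraries, and the count that rose ranged from 1 to 4 (1 without ND-WT library 2, 2 without ND-WT library 1 or 4 or HFD-*Acod1*-/- library 2) when 1 library was left out. Among 14 tested resident macrophage genes 4 rose and 2 fell (0 and 1 with the run as a term, 1 and 2 without the epididymis-rich libraries), beside 12.4% and 11.6% of all genes, with a median of 0.52. *Cd209d*, a C-type lectin, was at 5.401, 3.24, 6.48 and 2.83 CPM against 15.96, 12.97, 11.2, 11.5 and 18.3 CPM (log2 fold change 1.66, SE 0.28, adjusted p = 0.0153). *Gas6*, a ligand of receptors for dying cells, was at 182, 139, 155 and 168 CPM against 109, 67.5, 83.1, 103 and 111 CPM (log2 fold change -0.75, SE 0.15, adjusted p = 0.0214). These 2 had groups apart and passed in every fit that left out 1 library. *Cd163*, the haemoglobin scavenger receptor, fell (-0.91, adjusted p = 0.0507), and it no longer passed without ND-WT library 3 or 4, with an adjusted p of up to 0.112. *Pf4*, *Retnla* and *F13a1* also passed as higher, in 4, 2 and 1 of those fits.

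Most B cell genes were higher in HFD-*Acod1*-/- eWAT. Of 10 tested, 8 rose and 0 fell, beside 12.4% of all genes, with a median log2 fold change of 1.85 against 0.802 in HFD-WT mice. Between the HFD genotypes only *Ighm* passed, with 1 of the 10 higher and 0 lower in the knockout. Beside *Ighm*, the constant region of the kappa light chain, *Igkc*, was at 9.49, 9.41, 14.1 and 6.32 CPM in lean and 38.955, 36.1, 20.1, 81.2 and 45.3 CPM in knockout libraries (log2 fold change 2.19, SE 0.39, adjusted p = 0.0163). *Jchain*, which joins IgM and IgA into polymers, was at 4.71, 4.82, 3.43 and 3.602 CPM and 16.4, 8.001, 6.796, 33.1 and 23.8 CPM (log2 fold change 2.097, SE 0.47, adjusted p = 0.0261). For both every knockout library was above every lean one, and library 4 was highest. *Cd79a*, a chain of the B cell receptor, was at 1.01, 1.25, 0.65 and 0.327 CPM and 1.49, 1.0996, 1.33, 7.17 and 3.36 CPM (log2 fold change 1.84, SE 0.68, adjusted p = 0.0956). *Ms4a1*, the surface protein CD20, was at 1.03, 0.765, 0.525 and 0.366 CPM and 2.38, 0.341, 1.38, 14.03 and 3.14 CPM (log2 fold change 2.67, SE 0.94, adjusted p = 0.0849). Their groups overlapped and library 4 stood above the rest. *Cd79a* passed in 2 and *Ms4a1* in 3 of the 9 fits that left out 1 library, with adjusted p of up to 0.207 and 0.192. The count that rose was 3 to 8 (3 without ND-WT library 1 or 4 or HFD-*Acod1*-/- library 1 or 4, 4 without ND-WT library 2 or 3, 5 without HFD-*Acod1*-/- library 5) when 1 library was left out, 2 with the run as a term (*Ighm* and *Ighd*) and 3 without the epididymis-rich libraries. Summed over the list, knockout libraries had 816 to 1206 CPM, HFD-WT libraries 415 to 905 CPM and lean libraries 291 to 389 CPM. Most of each sum was *Ighm*, whose values are given above, so the sums largely repeat that gene and do not speak for the other members.

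Lists of other leukocytes had few members tested. Of 8 tested T and NK cell genes *Trac*, the constant region of the T cell receptor alpha chain, rose (0.818 to 1.101 against 1.08 to 3.21 CPM, 1.24, adjusted p = 0.0776), and it passed in 2 of the 9 fits that each left out 1 library, with an adjusted p of up to 0.167, the losses being without ND-WT library 1, 2, 3 or 4 or HFD-*Acod1*-/- library 2, 4 or 5. It was at 6.54 to 15.1 CPM in HFD-WT mice. Of 6 mast cell genes 0 rose and *Hdc*, the enzyme that makes histamine, fell (-1.57, adjusted p = 0.0605), where HFD-WT mice had a list median of 3.94 over lean mice. Of 3 neutrophil genes *S100a8*, a subunit of calprotectin, rose (7.83, 6.41, 2.73, 6.097 and 38.6 CPM in HFD-*Acod1*-/- libraries 1 to 5, 2.61, adjusted p = 0.0555) and *Mmp9*, a gelatinase, fell (3.38 to 14.4 against 0.57 to 1.74 CPM, -2.64, adjusted p = 0.0169). Library 5 held most *S100a8*, and it no longer passed without ND-WT library 2, 3 or 4, with an adjusted p of up to 0.122. No MHC class II gene of 9 passed, at a median of 0.48, and 1 was higher with the run as a term.

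The cytokine genes that passed were receptors, and they were lower. Of 21 tested cytokines and their receptors 0 rose and 3 fell (0 and 1 with the run as a term, 0 and 3 without the epididymis-rich libraries), a share near the 11.6% of all genes. *Il1r1*, the receptor for interleukin 1, was at 48.7, 51.3, 81.1 and 75.3 CPM against 26.9, 16.5, 30.5, 23.5 and 24.2 CPM (log2 fold change -1.39, SE 0.203, adjusted p = 0.0101). *Il6ra*, the receptor for interleukin 6, was at 71.2, 65.9, 120.3 and 95.4 CPM against 50.5, 31.2, 45.03, 39.3 and 53.2 CPM (log2 fold change -0.995, SE 0.202, adjusted p = 0.0212). All knockout libraries were below all lean libraries in both. *Il4ra* was the third (-0.56, adjusted p = 0.0408), and it no longer passed without ND-WT library 1, with an adjusted p of up to 0.102. Of 20 tested chemokines 5 rose and 2 fell, beside 12.4% and 11.6% of all genes. These counts were 3 and 0 with the run as a term and 1 and 2 without the epididymis-rich libraries. *Ccl11*, the eosinophil attractant eotaxin, was at 42.1, 20.6, 48.5 and 44.04 CPM against 61.6, 78.1, 55.05, 83.1 and 74.9 CPM (log2 fold change 0.88, SE 0.23, adjusted p = 0.0388), with groups apart. *Ccl2*, the monocyte attractant, was at 6.27, 2.21, 3.302 and 1.098 CPM against 5.25, 8.42, 3.25, 15.01 and 19.6 CPM (log2 fold change 1.696, SE 0.62, adjusted p = 0.0947), and it passed in 2 of the 9 fits that each left out 1 library, with an adjusted p of up to 0.186, the losses being without ND-WT library 2, 3 or 4 or HFD-*Acod1*-/- library 1, 2, 4 or 5. *Ccl8*, *Ccl24* and *Cxcl10* also passed as higher. *Cx3cl1*, a membrane-bound chemokine, fell (3.58 to 7.7998 against 0.892 to 2.92 CPM, -1.47, adjusted p = 0.0359), as did *Cxcl12* (-0.73, adjusted p = 0.0799). The count of chemokines that rose ranged from 1 to 6 (1 without ND-WT library 2, 3 or 4, 2 without HFD-*Acod1*-/- library 2, 4 or 5, 3 without ND-WT library 1 or HFD-*Acod1*-/- library 1) over the fits that left out 1 library.

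Acute-phase proteins made in fat had 6 of 12 tested members higher and 1 lower, beside 12.4% and 11.6% of all genes. These counts were 6 and 1 with the run as a term and 2 and 1 without the epididymis-rich libraries. The list's median was 0.78. *Saa3*, the serum amyloid A of adipose tissue, was at 5.12, 1.92, 2.98 and 1.29 CPM against 7.24, 17.7, 3.36, 15.7 and 85.6 CPM (log2 fold change 3.21, SE 0.93, adjusted p = 0.0499). Library 5 stood far above the other knockout libraries, and it no longer passed without ND-WT library 2 or 4, with an adjusted p of up to 0.118. HFD-WT libraries were at 77.4 to 157 CPM. *Orm1*, an orosomucoid, was at 123, 78.2, 124 and 239 CPM against 331, 600.0, 239, 251 and 341 CPM (log2 fold change 1.33, SE 0.36, adjusted p = 0.0419), and *Orm2*, whose sequence is close to that of *Orm1*, *Serpina3c*, *Lrg1* and *Hpx* rose too, *Hpx* being also on the liver list. *Cp*, the copper carrier ceruloplasmin, fell (141 to 246 against 88.01 to 129.9 CPM, -0.92, adjusted p = 0.0198). The count that rose was 3 to 7 (3 without ND-WT library 1 or 2) when 1 library was left out.

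Interferon-stimulated genes had 4 of 23 higher and 0 lower (1 and 1 with the run as a term, 3 and 0 without the epididymis-rich libraries), not far from the 12.4% of all genes, at a median of 0.201. *Ifit3* was at 17.9, 9.34, 13.4 and 10.9 CPM against 33.2, 28.8, 42.4, 26.4 and 28.5 CPM (log2 fold change 1.32, SE 0.21, adjusted p = 0.0125). *Ifit1*, its partner in binding viral RNA, was at 7.43, 4.697, 7.36 and 6.8002 CPM against 12.1, 13.6, 11.2, 14.2 and 10.2 CPM (log2 fold change 0.91, SE 0.18, adjusted p = 0.0205). Neither overlapped between the groups. *Gbp3*, a guanylate-binding protein, and *Zbp1*, a nucleic acid sensor, passed as well (0.67 and 1.02). In the toll-like receptor pathway *Casp1*, the inflammasome protease, rose alone of 18 (0.93, adjusted p = 0.0699), and it passed in 4 of the 9 fits that each left out 1 library, with an adjusted p of up to 0.153, the losses being without ND-WT library 1, 2, 3 or 4 or HFD-*Acod1*-/- library 4. Of 18 complement genes *C1qa* (0.603, adjusted p = 0.0736) and *Cfp* (0.55, adjusted p = 0.0788) rose, in 3 and 1 of the 9 fits that left out 1 library, a share near the 12.4% of all genes. None passed with the run as a term, and without the epididymis-rich libraries 0 complement genes were higher and 2 were lower, *C4b* (-1.45, adjusted p = 0.0769) among them.

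**Figure D4:**
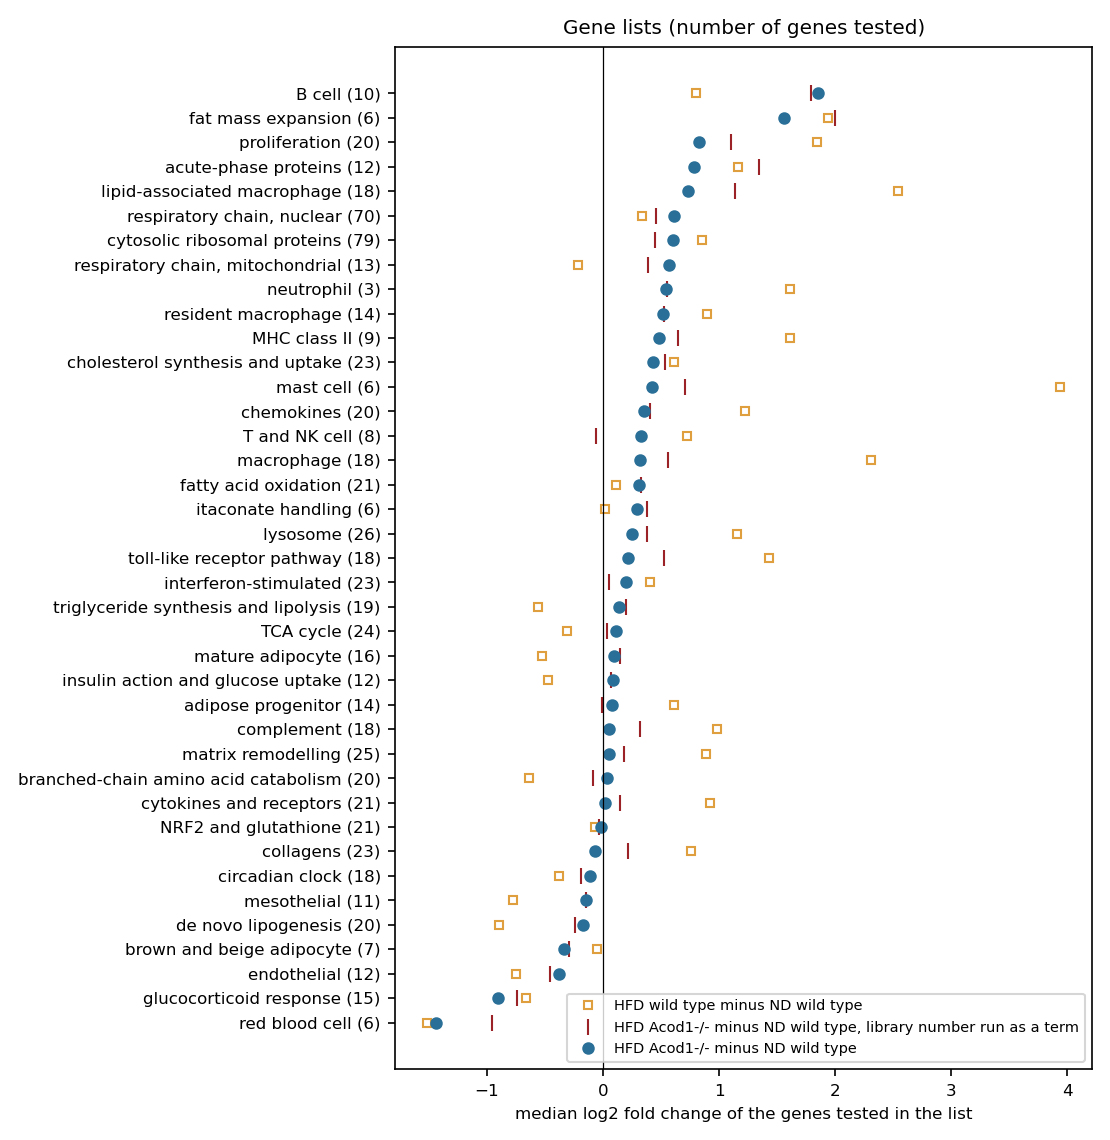
Median log2 fold change of each gene list, with the number of genes tested in brackets, for HFD-*Acod1*-/- against ND-WT eWAT (circles), the same with the library number run as a term (vertical bars) and HFD-WT against ND-WT (squares). Macrophage genes lie at 0.32 in HFD-*Acod1*-/- and 2.31 in HFD-WT mice, and B cell genes at 1.85 and 0.802. All 18 macrophage genes and 1 of 10 B cell genes passed between the HFD genotypes.

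Stromal and vascular genes fell at shares near the 11.6% of all genes. Of 12 tested endothelial genes *Cdh5*, VE-cadherin, fell (-0.504, adjusted p = 0.0769), as did *Kdr*, the receptor VEGFR2 (-0.55, adjusted p = 0.0878), each in 3 of the 9 fits that left out 1 library. Among 23 collagens 3 fell and 0 rose, while with the run as a term 0 were lower and *Col6a2* (1.205, adjusted p = 0.0907) and *Col12a1* (1.81, adjusted p = 0.0763) were higher. Without the epididymis-rich libraries 7 were lower, 5 of them chains of collagen IV, and 0 were higher. *Col4a4* and *Col4a3*, neighbouring chains of basement membrane collagen, both fell. *Col4a4* was at 16.1, 13.9, 5.55 and 10.5 CPM against 3.74, 3.53, 4.01, 2.65 and 5.22 CPM (log2 fold change -1.58, SE 0.32, adjusted p = 0.0205). *Col4a3* was at 6.82, 5.57, 2.35 and 5.09 CPM against 0.867, 1.21, 1.33, 1.37 and 2.06 CPM (log2 fold change -1.85, SE 0.37, adjusted p = 0.021), and *Col8a2*, a network-forming collagen, passed at -2.603, adjusted p = 0.0309. ND-WT library 3 was the lowest lean library for all 3, as it was for *Cdh16*. *Col4a3* and *Col4a4* had groups apart, and neither passed with the run as a term (-1.34, adjusted p = 0.312 and -0.895, adjusted p = 0.287). Fibrillar collagens did not pass, with *Col1a1* at 0.28, adjusted p = 0.577 and *Col3a1* at 0.29, adjusted p = 0.515.

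Of 25 matrix remodelling genes 1 rose and 4 fell, beside 12.4% and 11.6% of all genes. These counts were 1 and 1 with the run as a term and 0 and 7 without the epididymis-rich libraries. *Adamts1*, a protease that cleaves proteoglycans, was at 91.004, 52.6, 78.2 and 83.99 CPM against 38.7, 33.7, 42.8, 27.9 and 44.5 CPM (log2 fold change -1.01, SE 0.18, adjusted p = 0.0154), with groups apart. *Timp3*, an inhibitor of metalloproteinases, fell (-0.63, adjusted p = 0.0468), *Mmp9* is given above, and *Ccn2* passed in 1 of the fits that left out 1 library, while *Loxl1*, a collagen crosslinking enzyme, rose (0.73, adjusted p = 0.0404). The count that fell was 2 to 5 (2 without ND-WT library 1 or 3) over those fits. Of 14 adipose progenitor genes *Cd34* rose (0.46, adjusted p = 0.0948) and *Pdgfrb* (-0.61, adjusted p = 0.0597) and *Icam1* (-0.66, adjusted p = 0.0894) fell, in 1, 6 and 4 of those fits, and 0 passed with the run as a term and 1, as lower, without the epididymis-rich libraries. Of 11 mesothelial genes the keratins *Krt8* and *Krt18* fell, both also on the epithelial list, while the defining markers *Msln* (0.15, adjusted p = 0.813) and *Upk3b* (-0.11, adjusted p = 0.873) did not pass. Proliferation genes had 3 of 20 higher and 0 lower (1 and 0 with the run as a term, 0 and 0 without the epididymis-rich libraries), near the share of all genes, at a median of 0.83, with *Tyms*, thymidylate synthase, at 5.15, 4.31, 4.15 and 5.57 CPM against 7.76, 13.2, 6.58, 8.23 and 8.58 CPM (log2 fold change 0.897, SE 0.23, adjusted p = 0.0383), beside *Cdk1* (1.59, adjusted p = 0.0467) and *Birc5* (1.46, adjusted p = 0.0848), and the count was 1 to 5 (1 without ND-WT library 3 or 4, 5 without HFD-*Acod1*-/- library 4) when 1 library was left out.

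Of the tested genes, 4 of 18 of the circadian clock and 7 of 15 of the glucocorticoid response fell, beside 11.6% of all genes. Clock genes form a loop in which the activators BMAL1 (*Arntl*) with CLOCK or NPAS2 bind E-boxes of *Per* and *Cry* genes, whose products repress them, and nuclear receptors of the ROR and REV-ERB families tune *Arntl*. Glucocorticoids act through a receptor that binds its response elements and induces genes such as *Fkbp5*, *Sgk1* and *Per1*. The promoters of *Per1*, *Fkbp5* and *Sgk1* are shown because these genes fell and because they hold a motif of these regulators in the 250 bases before the start. They are from RefSeq (GRCm38.p6, the first entry listed for each symbol, whose start can lie inside the gene span given below), 5′ to 3′ on the gene's strand, with capitals marking the E-box CACGTG, the ROR half-site AGGTCA or its reverse complement TGACCT, and the glucocorticoid half-site TGTTCT, all searched on both strands.
Per1 (chr11:69098699-69098948, plus strand): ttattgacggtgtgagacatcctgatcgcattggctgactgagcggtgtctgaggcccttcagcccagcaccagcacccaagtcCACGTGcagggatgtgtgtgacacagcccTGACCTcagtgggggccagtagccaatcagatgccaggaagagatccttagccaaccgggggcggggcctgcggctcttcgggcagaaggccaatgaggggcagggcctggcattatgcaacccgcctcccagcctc
Fkbp5 (chr17:28486150-28486399, minus strand): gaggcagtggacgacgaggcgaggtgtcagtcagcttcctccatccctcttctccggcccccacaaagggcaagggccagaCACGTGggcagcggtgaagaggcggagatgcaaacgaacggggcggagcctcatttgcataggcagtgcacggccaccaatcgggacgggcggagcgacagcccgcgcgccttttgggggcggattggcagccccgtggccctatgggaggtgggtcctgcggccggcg
Sgk1 (chr10:21881934-21882183, plus strand): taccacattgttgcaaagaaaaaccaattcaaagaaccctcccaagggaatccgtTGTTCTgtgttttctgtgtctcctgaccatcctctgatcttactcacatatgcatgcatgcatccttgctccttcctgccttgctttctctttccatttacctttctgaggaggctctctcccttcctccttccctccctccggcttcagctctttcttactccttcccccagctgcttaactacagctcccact
The *Per1* promoter holds an E-box and a ROR half-site, the *Fkbp5* promoter an E-box and the *Sgk1* promoter a glucocorticoid half-site. The promoters of *Npas2*, *Arntl*, *Errfi1*, *Klf9* and *Tsc22d3*, genes that also fell, hold none of these motifs. An E-box was in 5 of 16 promoters of the clock list and 2 of 12 of the glucocorticoid list, against 6.02% of all 32851 promoters, and TGTTCT was in 0 and 1 of them, against 16.1%. AGGTCA was in 3 and 1 of them, against 14.02%. These matches describe the sequence and say nothing of binding.

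In the clock list 4 of 18 tested genes fell and 1 rose, against 1 lower and 0 higher with the run as a term and 3 and 0 without the epididymis-rich libraries, with a median log2 fold change of -0.11, and leaving out 1 library gave 3 to 5 lower. Among the activators, *Npas2* (ENSMUSG00000026077, chromosome 1, 39193731 to 39363236) was at 6.98, 8.06, 4.28 and 5.99 CPM in ND-WT and 0.396, 0.19, 0.325, 0.526 and 0.282 CPM in HFD-*Acod1*-/- libraries (log2 fold change -4.18, SE 0.37, adjusted p = 0.00187). *Arntl* (ENSMUSG00000055116, chromosome 7, 113207465 to 113314126) was at 16.5, 14.8, 7.96 and 6.76 CPM against 2.48, 3.07, 1.08, 1.63 and 4.98 CPM (log2 fold change -2.11, SE 0.46, adjusted p = 0.0243). Both had groups apart, and *Npas2* was also lower than in HFD-WT mice, whose libraries 1 to 5 were at 2.37, 1.69, 0.388, 4.77 and 0.785 CPM (-2.52, adjusted p = 0.0157). Of the HFD-WT libraries only library 3 fell within the knockout range. *Clock* itself was at -0.019, adjusted p = 0.952. Of the repressors, *Per1* (ENSMUSG00000020893, chromosome 11, 69095217 to 69109960) was at 113, 115, 197 and 193 CPM against 72.8, 67.2, 113, 50.9 and 66.1 CPM (log2 fold change -1.05, SE 0.25, adjusted p = 0.0313), and *Per2* (0.06, adjusted p = 0.911), *Per3* (0.797, adjusted p = 0.164), *Cry1* (-0.13, adjusted p = 0.643) and *Nr1d1*, which encodes REV-ERB alpha (-0.797, adjusted p = 0.108), did not pass. Knockout library 3 was level with ND-WT libraries 1 and 2 in *Per1*, and the other knockout libraries were below them. *Dbp*, a clock output factor, was at 20.3, 20.5, 64.9 and 66.2 CPM against 109.8, 114, 181, 64.02 and 53.6 CPM and passed as higher (log2 fold change 1.299, SE 0.48, adjusted p = 0.0958), but it passed in 1 of the 9 fits that each left out 1 library, with an adjusted p of up to 0.193, the losses being without ND-WT library 1, 2, 3 or 4 or HFD-*Acod1*-/- library 1, 2, 3 or 4. ND-WT libraries 1 and 2 differed from libraries 3 and 4 in *Dbp*, *Per1* and *Arntl*, libraries 1 and 2 being lower in *Dbp* and *Per1* and higher in *Arntl*. The time of day at which tissue was taken is not given in the sources used here, and its part in these values was not tested. With the run as a term *Npas2* passed (-4.93, adjusted p = 0.0438) and *Arntl* (-1.92, adjusted p = 0.222) and *Per1* (-1.295, adjusted p = 0.203) did not.

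**Figure D5:**
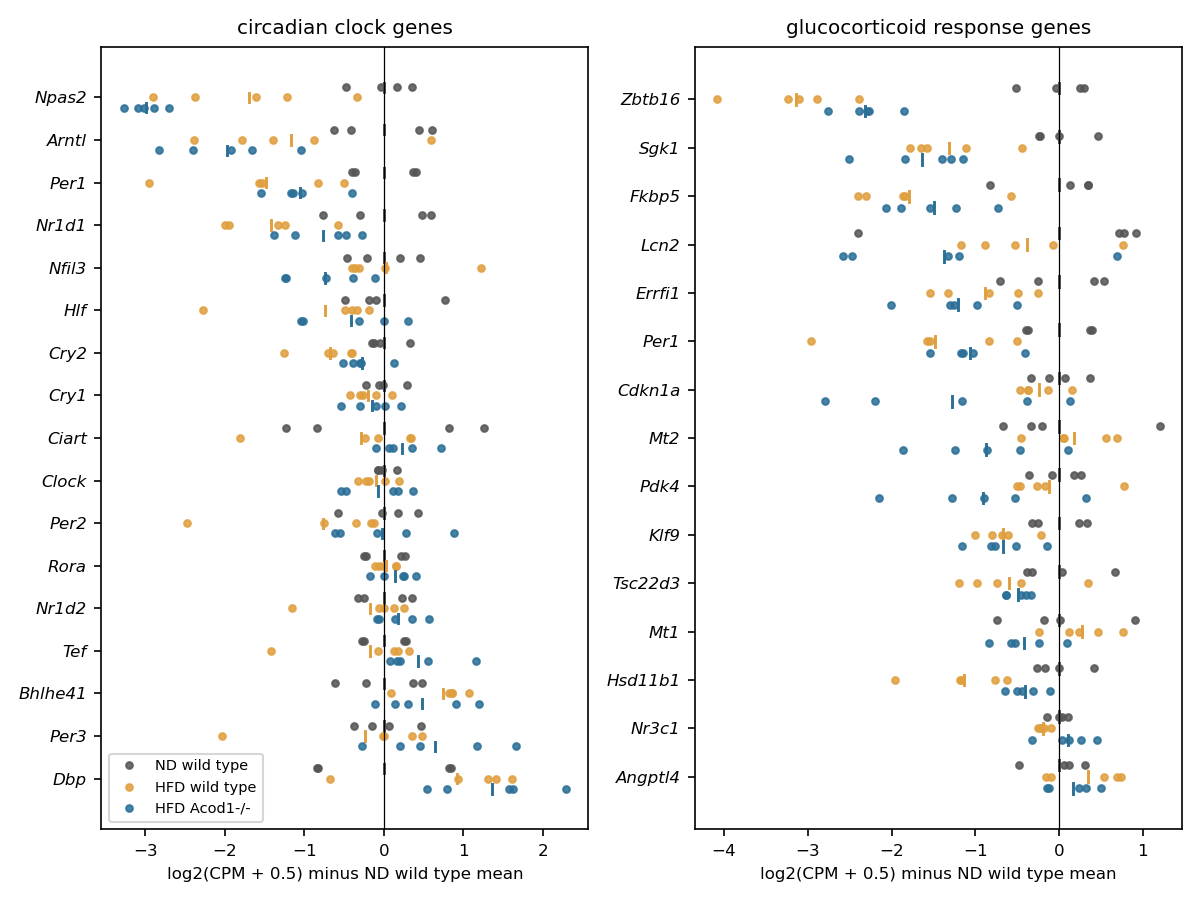
Level of clock and glucocorticoid response genes as log2(CPM + 0.5) minus the ND-WT mean, 1 point per library of ND-WT, HFD-WT and HFD-*Acod1*-/- eWAT, with short vertical bars at the group means. The 5 HFD-*Acod1*-/- libraries of *Npas2* lie at 0.19 to 0.526 CPM, under the 4 ND-WT libraries at 4.28 to 8.06 CPM.

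Of 15 tested glucocorticoid response genes 7 fell and 0 rose, with a median log2 fold change of -0.901, and the count was 5 to 9 when 1 library was left out and 5 without the epididymis-rich libraries. *Zbtb16*, given above, had the largest fall. *Sgk1* (ENSMUSG00000019970, chromosome 10, 21882184 to 21999903), a kinase that controls ion transport, was at 135, 134, 218 and 157 CPM against 59.3, 27.2, 70.8, 43.5 and 64.05 CPM (log2 fold change -1.59, SE 0.26, adjusted p = 0.0148). *Fkbp5* (ENSMUSG00000024222, chromosome 17, 28399094 to 28517527), a chaperone that lowers receptor sensitivity, was at 142, 318, 318 and 274 CPM against 85.8, 59.4, 107, 67.1 and 151 CPM (log2 fold change -1.48, SE 0.31, adjusted p = 0.0237). The *Sgk1* groups were apart, and in *Fkbp5* HFD-*Acod1*-/- library 5 reached above ND-WT library 1. *Errfi1*, an inhibitor of the EGF receptor, was at 54.05, 74.01, 128 and 118 CPM against 35.5, 21.5, 62.2, 36.5 and 44.3 CPM (log2 fold change -1.21, SE 0.32, adjusted p = 0.0392), with HFD-*Acod1*-/- library 3 inside the lean range. *Klf9* (-0.66, adjusted p = 0.0678) and *Tsc22d3*, which encodes the anti-inflammatory protein GILZ (-0.53, adjusted p = 0.0993), passed in 4 and 3 of the fits that left out 1 library, with adjusted p of up to 0.15 and 0.212. HFD-WT mice showed a median of -0.66 over the same list, and 0 of its genes were lower and 3 higher in HFD-*Acod1*-/- than in HFD-WT mice. With the run as a term 2 members passed as lower, beside 2.70% of all genes, *Zbtb16* (-2.48, adjusted p = 0.0402) and *Sgk1* (-1.68, adjusted p = 0.0726).

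Of 6 tested genes that make, carry or break down itaconate or its targets, 1 rose and 0 fell, beside 12.4% and 11.6% of all genes. These counts were 0 and 0 with the run as a term and 0 and 0 without the epididymis-rich libraries. *Suclg1*, a subunit of the enzyme that can activate itaconate to its CoA ester, rose (0.398, adjusted p = 0.0585). It passed in 4 of the 9 fits that each left out 1 library, with an adjusted p of up to 0.141, the losses being without ND-WT library 1, 2 or 3 or HFD-*Acod1*-/- library 1 or 2. Of 21 tested genes of the NRF2 and glutathione response 2 rose and 0 fell, where 12.4% of all genes rose and 11.6% fell. These counts were 2 and 0 with the run as a term and 1 and 0 without the epididymis-rich libraries. *Sod2*, the mitochondrial superoxide dismutase, was at 128, 113, 143 and 153 CPM against 209, 365, 192, 214 and 268 CPM (log2 fold change 0.91, SE 0.196, adjusted p = 0.0243), with groups apart, and *Gpx4*, which reduces lipid peroxides, passed at 0.51, adjusted p = 0.0798, in 3 of the fits that left out 1 library. The classical NRF2 targets *Nqo1* (-1.16, adjusted p = 0.166) and *Hmox1* (0.66, adjusted p = 0.19) did not pass.

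Some transcripts of blood and muscle also differed. Of 6 red blood cell genes 5 fell and 0 rose (0 and 0 with the run as a term, 0 and 5 without the epididymis-rich libraries), with a median of -1.44, -0.95 with the run as a term, and leaving out 1 library gave 2 to 6 (2 without ND-WT library 3 or 4 or HFD-*Acod1*-/- library 2). *Hba-a1*, an alpha globin with a near-identical copy, was at 264, 189, 563 and 533 CPM against 97.9, 138, 128, 156 and 227 CPM (log2 fold change -1.36, SE 0.34, adjusted p = 0.0352). *Alas2*, the erythroid enzyme of haem synthesis, was at 22.97, 26.6, 56.2 and 53.01 CPM against 4.96, 10.05, 9.96, 9.88 and 28.2 CPM (log2 fold change -1.64, SE 0.47, adjusted p = 0.0499). ND-WT libraries 3 and 4 were well above ND-WT libraries 1 and 2 in both, and HFD-*Acod1*-/- library 5 overlapped the lean range. Of 7 skeletal muscle genes 3 rose and 0 fell (1 and 0 with the run as a term, 2 and 0 without the epididymis-rich libraries). *Pvalb*, parvalbumin, was at 1.297, 0.0889, 0.25 and 0.0578 CPM against 2.35, 10.5, 3.17, 1.76 and 12.95 CPM (log2 fold change 3.87, SE 1.06, adjusted p = 0.0433), while *Tnnc2* and *Myh4* rested on HFD-*Acod1*-/- libraries 2 and 3, with 14.03 and 3.52 CPM of *Myh4*, and each passed in 3 of the 9 fits that left out 1 library, where the count of the list was 1 to 3 (1 without ND-WT library 2, 3 or 4 or HFD-*Acod1*-/- library 2 or 3). *Pvalb* was at 15.3 to 30.8 CPM in HFD-WT mice.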

How the data were processed

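The authors prepared directional mRNA libraries from snap-frozen eWAT, 1 mouse per library, trimmed adapters, discarded reads under 18 bp and contaminants, and aligned with STAR 2.4.2a to GRCm38 (annotation 95, per the submitters' processing notes). They deposited 1 table per library with raw counts of uniquely aligned reads per gene, cDNA lengths and FPKM columns. The FPKM columns were not used. The counting program and its use of strand are not given in the sources used here, so overlapping and antisense genes are uncertain. Rows that name no gene were dropped, which left 54752 genes, 54723 with a symbol.

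From the deposited counts, genes averaging 1 CPM or more across the 9 libraries were kept, normalized by TMM and tested with edgeR 4.0.16 (quasi-likelihood, group only, limma 3.58.1, R 4.3.3). Calls are at a Benjamini-Hochberg adjusted p under 0.1. HFD-*Acod1*-/- was set against HFD-WT in a fit of 14 libraries over the same genes. Printed CPM use TMM-scaled library sizes over the 14 libraries. Tables and figures used Python 3.11.15, numpy 2.4.6, pandas 2.3.3, scipy 1.17.1 and matplotlib 3.10.9.

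The genes named are *Acod1*, then per direction the 12 called genes of smallest adjusted p and the 5 of largest change, among those with a symbol, at least 5 CPM and groups apart, and members of the lists described. The values of a few of these genes are not reported here. The 40 lists were written from general knowledge and 3 more (liver, epithelium, ribosomal proteins) were added after the values were seen. Members and lists were chosen with earlier results of these data known. Alternatives were DESeq2 1.42.0, its size factors, other filters, the run as a term, the second run alone, a block for replicate number, a threshold of 0.05, each library left out, and, added after seeing the data, 2 sets of libraries left out. No 2 libraries of a group were copies (lowest chi-square per degree of freedom 39.1 among the 9 libraries and 30.95 among the HFD-WT libraries).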

Additional observations from a re-analysis of the deposited data

Results flagged for a closer look

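In 132 groups of 4 or 5 libraries, covering *Acod1* and 65 other genes, 9 had 1 library whose gap to the nearest other, over the range of the group, was above Dixon's critical value (0.829 for 4 libraries and 0.710 for 5). A rate of about 1 in 20 by chance would hold for independent groups. These groups share their libraries, and most genes were picked from these data, so the count cannot be set against that rate. In HFD-*Acod1*-/- library 2, the library rich in mitochondrial reads, 4 genes stood high, namely *Unc119* at 177 CPM (others 72.2 to 94.4), *Agpat2* at 1246 CPM (others 433 to 557), *Pnpla3* at 148 CPM (others 116 to 124) and *Acly* at 509 CPM (others 246 to 310). In HFD-*Acod1*-/- library 5, the 1 knockout library of the second library number run, *Lgals3* stood at 558 CPM (others 112 to 235) and *Saa3* at 85.6 CPM (others 3.36 to 17.7). Among ND-WT libraries, *Bcl7a* stood at 29.1 CPM in library 2 (others 22.6 to 23.7), *Cyp2f2* at 238 CPM in library 4 (others 9.65 to 38.8) and *Acod1* at 0.0385 CPM in library 4, from 2 counts, where the others had 0. The causes of these values were not tested.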

How the results depend on the processing

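Against ND-WT, 1867 genes rose and 1748 fell. These counts were 1040 and 1161 with no filter on low counts, 566 and 407 with the library number run as a term, 492 and 448 in the second run alone (1 knockout library, assumed to vary like the lean ones), 1230 and 978 without the 3 libraries with epididymis genes over 100 CPM, and 994 and 878 at an adjusted p under 0.05, each set over 1.5 times from the main count in at least 1 direction. Leaving out 1 library gave 900 to 2084 higher and 1021 to 1931 lower, the lowest being 900 and 1076 without ND-WT library 4, 1012 and 1021 without library 2 and 1038 and 1081 without library 1. Within 1.5 times were DESeq2 (2440 and 2150), its size factors (1883 and 1718), 1 CPM in every library (1790 and 1634), the fit of 14 libraries (1984 and 1922) and the fit without HFD-*Acod1*-/- libraries 2 and 5 (1245 and 1258). The block for replicate number gave 1387 and 1273, but the numbers do not pair the mice, since same-numbered libraries deviated together with correlations of 0.011, -0.238, 0.290 and 0.113 and none correlated best with its own number. HFD-*Acod1*-/- against HFD-WT gave 1358 higher and 1591 lower, 1818 and 1865 by DESeq2, 1233 and 1595 with the run as a term, 923 and 1425 with the block, and 627 and 1036 at an adjusted p under 0.05. Leaving out 1 library gave 701 to 2002 higher and 1004 to 2149 lower. The exact permutation p of *Acod1* was 0.556, 1 on raw counts, and 0.429 to 1 with 1 library left out. Of the followed genes' alternatives 1198 kept the call and direction, 90 lost the call, and none reversed. These genes were picked from those that passed here, many with groups apart, so this does not speak for other genes. *Adgre1*, which was not followed, had a log2 fold change of 0.41 in the main fit and -0.91 without the epididymis-rich libraries. Of the list counts 556 stayed within 1.5 times of the main count and 444 did not. The causes were not tested. Depth limits *Acod1* and genes under 1 CPM.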
